A study of Mus musculus with 8 samples.

Results

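The circadian clock genes described here are Arntl, Clock, Per1, Per2, Per3, Cry1, Cry2, Nr1d1, Nr1d2 and Dbp, 10 genes of the 54532 in the count table, chosen by name as the core clock and its best known output gene. They were measured in intestinal epithelial cells of mouse dams at lactation day 5. One group was 4 WT dams and the other was 4 Rank-knockout dams, with 1 library per animal, and all 10 genes passed the filter on low counts that left 9855 tested genes. Per the study's methods, the Rank-knockout carries floxed Rank alleles cut by a Cre under the villin promoter (Vil cre), so that Rank is deleted in the intestinal epithelium alone, the WT dams are littermates, and all lines are on C57BL/6J and live under a light-dark cycle. Ages are given only as a broad range for the study's mice. The hour at which each was killed and whether she had just eaten are not given in the sources used here, and which section of the intestine the cells came from is not in the labels. The question asked of these genes was whether their levels, and the balance between those that peak at opposite times of day, differed between the genotypes.

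The mammalian clock is a feedback loop of transcription. The proteins of Arntl (BMAL1) and Clock bind E-box sequences as a pair and switch on the Per, Cry and Nr1d genes, the PER and CRY proteins then inhibit that pair, and the REV-ERB receptors encoded by Nr1d1 and Nr1d2 repress Arntl through ROR elements. Dbp and its relatives Tef and Hlf are PAR bZIP factors that carry the rhythm to D-box sequences in output genes, and in the gut the clock is reset by feeding and is known to time nutrient transport and cell division.

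The promoters of 9 of the 10 genes were found in RefSeq (build GRCm38.p6), as 13 windows of 300 bases that run from 250 before to 50 after a start site. Those of 3 genes that were lower in Rank-knockout and that of Arntl, the gene on the opposite arm of the loop, are printed 5′ to 3′ in lower case, with the letters of a clock motif in capitals. In Per3 the capitals are 2 D-boxes, in Cry2 an E-box variant read on the opposite strand, and in Arntl a ROR element core, while the window of Dbp held none of the motifs searched.
Dbp (chr7:45704997-45705296, plus strand): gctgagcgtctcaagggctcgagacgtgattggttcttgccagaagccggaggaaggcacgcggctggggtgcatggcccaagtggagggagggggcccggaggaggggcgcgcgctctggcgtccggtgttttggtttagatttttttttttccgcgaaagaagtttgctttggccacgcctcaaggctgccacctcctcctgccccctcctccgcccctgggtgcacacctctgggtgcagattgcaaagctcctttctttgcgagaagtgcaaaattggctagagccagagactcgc
Per3 (chr4:151044616-151044915, minus strand): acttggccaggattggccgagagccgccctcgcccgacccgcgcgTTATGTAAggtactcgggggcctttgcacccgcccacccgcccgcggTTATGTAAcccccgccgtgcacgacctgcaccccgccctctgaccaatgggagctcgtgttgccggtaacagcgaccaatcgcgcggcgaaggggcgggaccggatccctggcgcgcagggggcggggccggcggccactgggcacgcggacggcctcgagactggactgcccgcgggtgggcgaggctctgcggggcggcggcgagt
Cry2 (chr2:92434020-92434319, minus strand): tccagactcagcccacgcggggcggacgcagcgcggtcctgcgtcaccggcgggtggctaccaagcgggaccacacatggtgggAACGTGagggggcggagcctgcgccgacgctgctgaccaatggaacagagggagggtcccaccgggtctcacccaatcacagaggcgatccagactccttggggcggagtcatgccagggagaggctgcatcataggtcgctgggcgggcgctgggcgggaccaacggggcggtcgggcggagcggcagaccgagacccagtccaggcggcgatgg
Arntl, the second of its start sites (chr7:113207261-113207560, plus strand): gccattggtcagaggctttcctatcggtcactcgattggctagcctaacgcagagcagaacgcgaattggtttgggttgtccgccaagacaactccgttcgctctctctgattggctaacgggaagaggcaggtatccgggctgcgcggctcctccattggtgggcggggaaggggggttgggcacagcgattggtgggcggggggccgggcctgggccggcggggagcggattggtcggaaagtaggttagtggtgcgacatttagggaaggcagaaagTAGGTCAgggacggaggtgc

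The letters searched, on both strands, were the E-box CACGTG, its variant CACGTT, the D-boxes TTATGTAA and TTACGTAA, the ROR element cores TAGGTCA and TGGGTCA, and the cyclic AMP element TGACGTCA. Per3 was the only one of the 9 genes with a D-box in these windows, at 205 and 158 bases before its start site, where 0.938% of all 32851 promoters in the table hold TTATGTAA. E-boxes, held by 7.15% of promoters, lay 166 bases before a start site of Per1 and 60 bases before that of Cry1. The variant, held by 4.68%, lay before the start sites of Cry1 (79 bases), Cry2 (166 bases) and Nr1d1 (28 bases). TAGGTCA, held by 2.61%, lay 31 bases after the second start site of Arntl, and neither Clock nor Nr1d2 held any motif in these windows. In all, 6 of the 9 genes with a promoter held 1 or more, and a match of letters is not evidence that a factor is bound.

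Libraries held between 1530781 and 4335653 counts, and the median was 1609942 for WT but 3070751 for Rank-knockout, so that counting error was larger in most WT libraries. Levels are given as CPM, counts scaled to a common library size with the TMM method of edgeR. Each transcript gives about 1 tag at its 3′ end, so CPM can be set side by side between genes without a correction for length. Counts of the clock genes in a library ran from 6 to 694. Tnfrsf11a, which encodes Rank, had 77.4, 49.7, 41.7 and 73.9 CPM in WT replicates 1 to 4 and 27.2, 42.0, 35.5 and 47.2 CPM in Rank-knockout. Its log2 fold change was -0.67 (SE 0.22) at an edgeR adjusted p of 0.0321 and the groups overlapped. A 3′ tag that lies outside the deleted part of the gene still counts, so this value does not check the deletion. Of the marker lists, that for epithelium was high in all libraries, with a summed 9616 to 10552 CPM in the WT libraries and 7425 to 9109 CPM in Rank-knockout.

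Of the 10 clock genes Dbp, Cry2, Per2 and Per3 passed the test and fell in Rank-knockout, and none rose. Of the 10 log2 fold changes 9 were below 0, where 48.3% over all tested genes were, and that of Clock was only -0.003. Of all tested genes 14.6% were called lower and 15.8% higher (30.4% in either direction), against 40% and 0 of these 10. At an unadjusted p under 0.05, 6 of the 10 were lower, where 20.1% of all tested genes were, and 0 were higher. DESeq2 called 4 of the 10 lower and 0 higher, where it called 15.1% of all genes lower. The median log2 fold change of the 10 was -0.50, beside 0.02 over all tested genes. Every Rank-knockout library lay below every WT library in 3 of them, which 14.3% of all tested genes also showed (28.8% were without overlap in either direction). Scaled by library totals in place of TMM, 2566 genes were called higher and 859 lower, against 1555 and 1438 with TMM, and of the 10 Dbp and Cry2 alone passed. The 10 were not noisier than other genes, with a median biological coefficient of variation of 0.185 beside 0.182 over all tested genes.

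**Figure D1:**
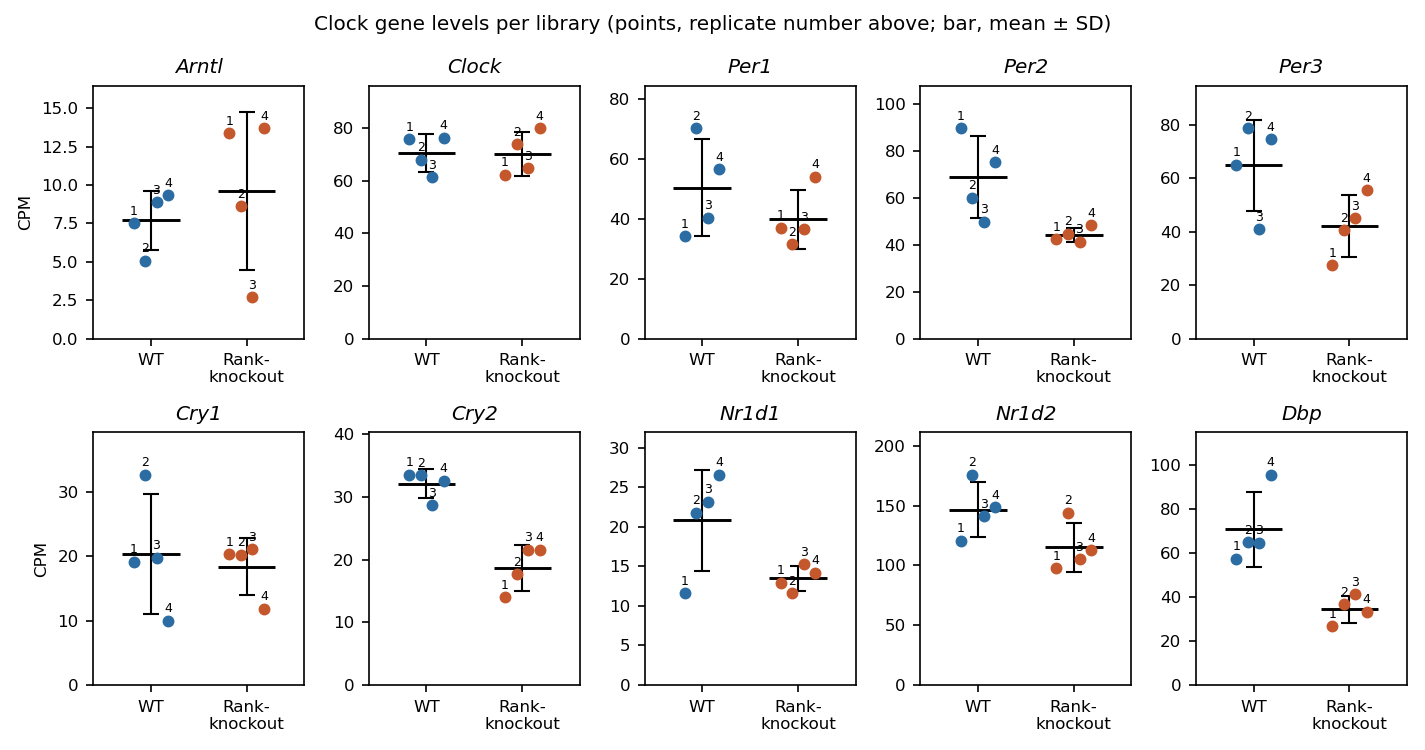
Level of each clock gene in CPM (vertical axis, from 0) in the 4 WT and 4 Rank-knockout libraries, with the replicate number above each point and the mean ± SD as bars. Dbp, Cry2 and Per2 show no overlap between genotypes, Clock lies at the same level in both, and Arntl of Rank-knockout spreads from 2.70 to 13.7 CPM.

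The PAR bZIP gene Dbp (ENSMUSG00000059824, GRCm38 chromosome 7, 45705088 to 45710203, plus strand) showed the largest change of the 10. It stood at 57.5, 65.1, 64.9 and 95.9 CPM in WT replicates 1 to 4, and at 26.7, 36.8, 41.4 and 33.5 CPM in Rank-knockout. The groups did not overlap, and the highest Rank-knockout library was well under the lowest WT library. The mean fell from 70.8 ± 17.0 to 34.6 ± 6.15 CPM (SD, n = 4 each), which the fit gave as 48.5% of WT with a 95% interval of 36.6% to 64.3%. Its log2 fold change was -1.04 (SE 0.19) at an edgeR adjusted p of 0.00114. Without each library in turn and under every other setting tried its adjusted p remained under the threshold.

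The relatives of Dbp were taken from a list of 11 other clock genes. Hlf, also a PAR bZIP factor, stood at 33.6, 45.4, 23.2 and 41.3 CPM in the WT libraries and at 12.5, 18.01, 20.2 and 23.99 CPM in Rank-knockout. Only the lowest WT library reached into the Rank-knockout range, and the log2 fold change was -0.97 (SE 0.24) at an edgeR adjusted p of 0.00672. Tef, the most abundant of the clock genes examined, had 565 ± 99.5 CPM in the WT libraries and 410 ± 85.5 CPM in Rank-knockout (SD, n = 4 each). Its estimate of -0.47 lay close to the threshold (edgeR adjusted p = 0.0557), and it passed in 5 of 17 other settings, DESeq2 among them. Nfil3, the bZIP repressor that competes for D-boxes, was too low to test, with 21 counts over all WT and 56 over all Rank-knockout libraries.

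Of the repressors of the PER and CRY arm, 3 of 5 fell, beside 14.6% of all tested genes, and of these Per3 lost its call in 9 of 17 other settings. Cry2 (ENSMUSG00000068742, chromosome 2, 92403646 to 92434043, minus strand), a cryptochrome that holds the activators inactive, stood at 33.6, 33.4, 28.7 and 32.6 CPM in the WT libraries and at 14.0, 17.6, 21.6 and 21.6 CPM in Rank-knockout. It was the tightest of the 10 in WT and did not overlap. The mean fell from 32.1 ± 2.30 to 18.7 ± 3.65 CPM, with a log2 fold change of -0.79 (SE 0.19) at an edgeR adjusted p of 0.00651. Cry1, its paralog, which peaks later in the cycle, had 19.2, 32.7, 19.8 and 9.98 CPM in the WT libraries and 20.4, 20.3, 21.1 and 11.9 CPM in Rank-knockout. The groups overlapped throughout, and the estimate of -0.23 had an interval of -0.85 to 0.39 and turned to 0.15 without WT replicate 2. Whether Cry1 and Cry2 differed in their response was not tested.

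Per2 (ENSMUSG00000055866, chromosome 1, 91415982 to 91459324, minus strand), a period gene that also takes up systemic signals, stood at 89.7, 60.1, 49.9 and 75.2 CPM in the WT libraries and at 42.5, 44.7, 41.4 and 48.2 CPM in Rank-knockout. The Rank-knockout libraries were close together and all under the lowest WT library, by a narrow margin. The log2 fold change was -0.63 (SE 0.18) at an edgeR adjusted p of 0.0152, and without WT replicate 1 it was -0.50 with an adjusted p of 0.0544. Under library totals it was -0.43 with an adjusted p of 0.0816. Per3 (ENSMUSG00000028957, chromosome 4, 151003652 to 151044665, minus strand), the period gene with the D-boxes shown above, stood at 65.1, 78.8, 41.0 and 74.6 CPM in the WT libraries and at 27.4, 40.5, 44.96 and 55.6 CPM in Rank-knockout. The groups overlapped through the low WT replicate 3, and the log2 fold change was -0.64 (SE 0.23) at an edgeR adjusted p of 0.0444. This call was lost without any 1 of 6 libraries (WT replicates 1, 2 and 4 and Rank-knockout replicates 1, 2 and 3), with adjusted p from 0.0726 to 0.132. It was lost too under library totals, with the 50 top genes kept out of the totals, and by limma-voom, with adjusted p of 0.140, 0.0979 and 0.0504.

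Per1 (ENSMUSG00000020893, chromosome 11, 69095217 to 69109960, plus strand), the period gene that answers fastest to hormones and light, did not pass the threshold. It had 34.3, 70.2, 40.3 and 56.6 CPM in the WT libraries and 36.9, 31.5, 36.4 and 54.0 CPM in Rank-knockout. WT replicates 1 and 3 lay within the Rank-knockout range, and the estimate of -0.36 had an interval of -0.85 to 0.12. It ran from -0.55 without Rank-knockout replicate 4 to -0.14 without WT replicate 2.

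Neither gene for a REV-ERB receptor passed the threshold with all libraries and genotype alone. Nr1d2 (ENSMUSG00000021775, chromosome 14, 18204054 to 18239127, minus strand), the most abundant of the 10, had 121, 176, 141 and 148 CPM in the WT libraries and 97.9, 144, 105 and 113 CPM in Rank-knockout. Its estimate was -0.36 (SE 0.16) at an edgeR adjusted p of 0.0984, with WT replicates 1 and 3 and Rank-knockout replicate 2 in the range of the other genotype. It passed without Rank-knockout replicate 2 (-0.48, edgeR adjusted p = 0.0448) and with a replicate block (-0.35, edgeR adjusted p = 0.0479). Whether the replicate numbers pair the animals is not in the labels. Nr1d1 (ENSMUSG00000020889, chromosome 11, 98767932 to 98775333, minus strand) had 11.6, 21.8, 23.2 and 26.6 CPM in the WT libraries and 12.9, 11.6, 15.3 and 14.2 CPM in Rank-knockout. WT replicate 1, on 17 counts, was as low as the lowest Rank-knockout library, and the other 3 WT libraries were above all of Rank-knockout. The estimate was -0.63 (SE 0.24) at an edgeR adjusted p of 0.0558, and without WT replicate 1 it was -0.84 with an adjusted p of 0.0129. The 3′ end of Nr1d1 overlaps Thra on the opposite strand, and the counting used strand. Rora and Rorb, activators at the same elements, held at most 7 counts over a whole group.

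Neither activator passed the threshold. Clock (ENSMUSG00000029238, chromosome 5, 76209868 to 76304792, minus strand) stood at 76.0, 68.2, 61.5 and 76.5 CPM in the WT libraries and at 62.4, 73.9, 64.7 and 80.1 CPM in Rank-knockout. Fitted as 99.8% of WT, with an interval of 80.1% to 124%, it was the steadiest of the 10 between libraries, and the sign of its estimate turned with the scaling. Arntl (ENSMUSG00000055116, chromosome 7, 113207465 to 113314126, plus strand) was the least abundant, at 7.54, 5.07, 8.88 and 9.32 CPM in the WT libraries and 13.4, 8.63, 2.70 and 13.7 CPM in Rank-knockout. Rank-knockout replicates 1 and 4 were above every WT library and replicate 3 was under all of them. These values rested on 11 to 20 counts in a WT library and 6 to 63 in a Rank-knockout library. The estimate of 0.46, the only one of the 10 above 0, had an interval of -0.38 to 1.29 (edgeR adjusted p = 0.403), so a change in either direction was not detectable in these libraries. Its biological coefficient of variation of 0.322 was the highest of the 10, and with 1 library left out the estimate ran from 0.23 (without WT replicate 2) to 0.72 (without Rank-knockout replicate 3). It was 0.26 and 0.27 when replicate 1 or 4 of Rank-knockout was left out. Npas2, which can stand in for Clock, was also low and had an estimate of -0.52 (edgeR adjusted p = 0.376).

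**Figure D2:**
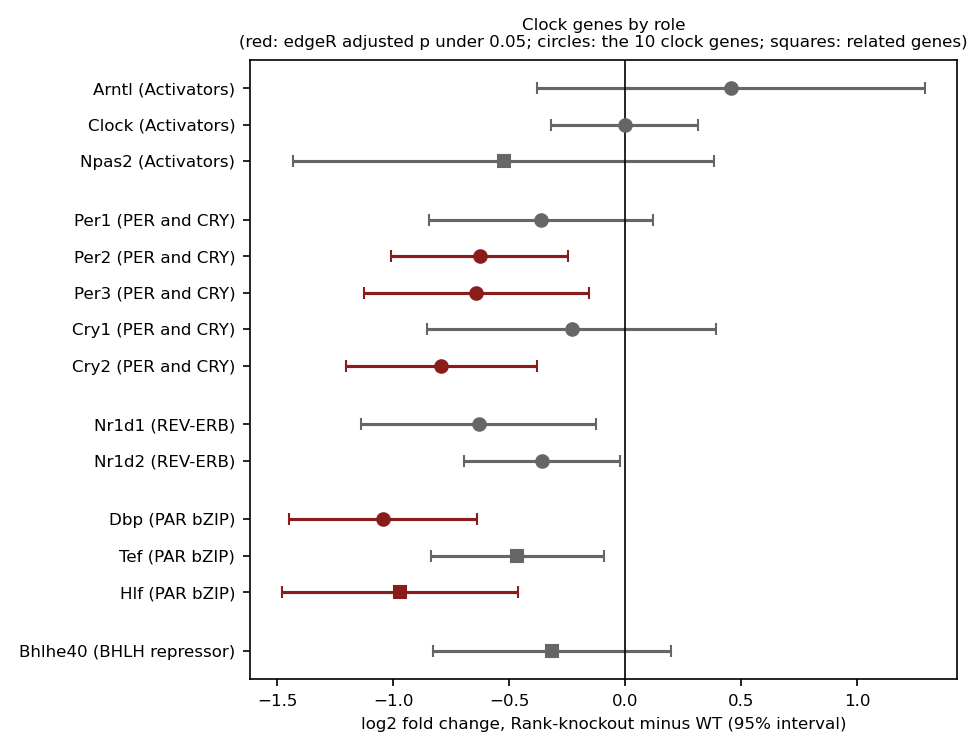
Fitted log2 fold change, Rank-knockout minus WT, with its 95% interval (horizontal axis), for the 10 clock genes (circles) and 4 tested genes of the list of other clock genes (squares), ordered by role. Dbp, Hlf, Cry2, Per2 and Per3, in red, passed the edgeR threshold below 0, and the intervals of Clock and Arntl span 0.

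The order of the levels differed most for Dbp, whose mean lay above those of Clock and the PER genes in WT and below them in Rank-knockout. In WT, Nr1d2 (147 CPM) was followed by Dbp (70.8), Clock (70.6), Per2 (68.7), Per3 (64.9), Per1 (50.3), Cry2 (32.1), Nr1d1 (20.8), Cry1 (20.4) and Arntl (7.70), as mean CPM. The libraries of Nr1d2 were all above those of Dbp, and those of Arntl all below those of Cry1, but from Dbp to Per1 the ranges overlapped. In Rank-knockout the mean CPM was 115 for Nr1d2, 70.3 for Clock, 44.2 for Per2, 42.1 for Per3, 39.7 for Per1, 34.6 for Dbp, 18.7 for Cry2, 18.4 for Cry1, 13.5 for Nr1d1 and 9.60 for Arntl. Clock thus stood clear of the PER genes and Dbp in every Rank-knockout library, whereas in WT it lay among them.

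A shift of clock phase would move the genes of opposite phase against each other within each library. As an index of this, the mean log2 CPM of Dbp, Nr1d1, Nr1d2 and Per3, which peak in the day in mouse tissues, was set against the mean of Arntl and Clock, whose rhythm runs the other way and is weak for Clock. Such a difference does not depend on the scaling between libraries, and since the genes were chosen with results known it is given with no test. It was 0.96, 1.76, 1.18 and 1.405 log2 units in WT replicates 1 to 4, and 0.098, 0.63, 1.504 and 0.32 in Rank-knockout. WT averaged 1.32 ± 0.34 and Rank-knockout 0.64 ± 0.62 (SD, n = 4 each), a difference of -0.69. With Per1 and Per2 added to the day-peaking set and Cry1 and Npas2 to the other, the difference was smaller, at -0.44, and the genotypes also overlapped. In the first index Rank-knockout replicates 1, 2 and 4 lay below every WT library and replicate 3 lay within the WT range.

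Replicate 3 of Rank-knockout, with 6 counts of Arntl, had a Dbp minus Arntl difference of 3.62 log2 units, above the WT range of 2.77 to 3.504, while the other 3 had 0.96, 2.002 and 1.24. Clock rested on 90 counts or more in each library, but Nr1d1 of the day-peaking set on only 17 to 86. With Arntl left out, the 4 day-peaking genes minus Clock were at -0.65, -0.028, -0.17 and -0.066 in WT. In Rank-knockout this difference was -0.98, -0.87, -0.62 and -0.93. WT replicate 1 and Rank-knockout replicate 3 then still overlapped, and the difference of the means was -0.62. Set against Clock, Dbp by itself was at -0.40, -0.065, 0.077 and 0.32 in WT and at -1.20, -0.99, -0.64 and -1.24 in Rank-knockout. The groups did not overlap there, and the means of -0.016 ± 0.30 and -1.02 ± 0.28 differed by -1.002, which is close to the fold change of Dbp itself. The day-peaking side of the index ran from 5.61 to 6.21 log2 units in WT and from 5.00 to 5.41 in Rank-knockout, and the Arntl and Clock side ran from 4.32 to 4.80 in WT and from 3.91 to 5.09 in Rank-knockout. Sampling times were not given, so a shift of phase, a lower amplitude and a different hour of sampling cannot be told apart from these 8 libraries.

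**Figure D3:**
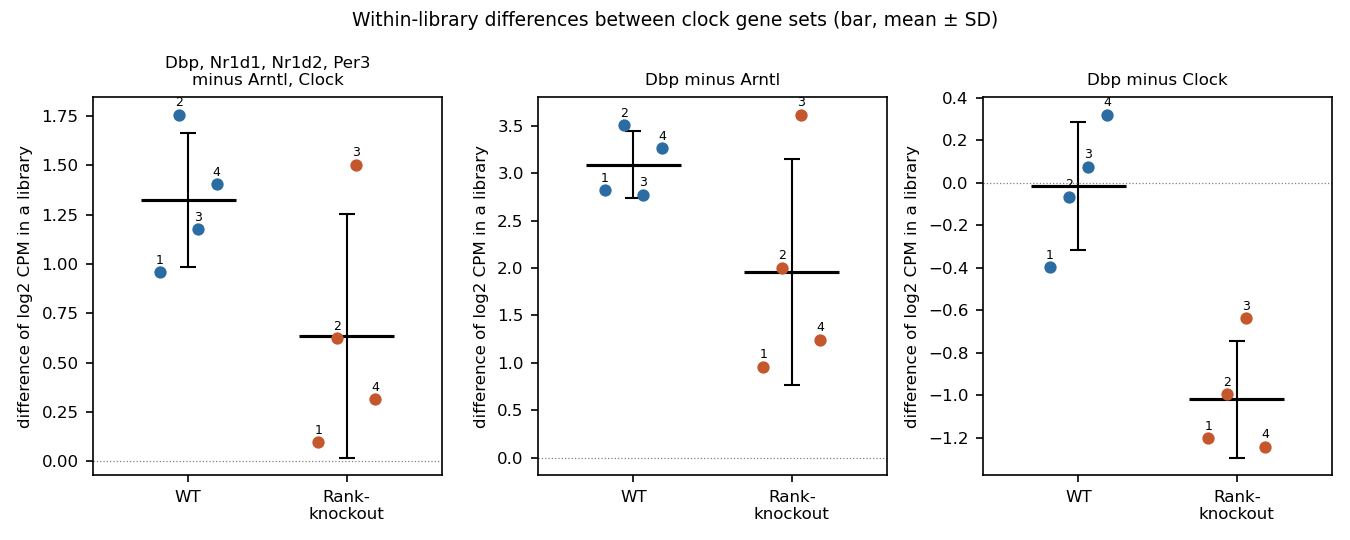
Differences of log2 CPM within a library (vertical axes) for the 4-gene set minus Arntl and Clock, for Dbp minus Arntl and for Dbp minus Clock, with the replicate number above each point and the mean ± SD as bars. Rank-knockout replicate 3 lies among or above the WT libraries in the panels with Arntl, and all Rank-knockout libraries lie below WT for Dbp minus Clock.

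Within a genotype, deviations of log2 CPM from the genotype mean were compared over the 45 pairs of the 10 genes. Their Pearson r over 8 libraries had a median of 0.18, and 28 pairs were above 0. Pairs of either sign enter this median, so it does not measure how much variation was shared. The r of the pairs ran from -0.59 (Per2 and Nr1d1) to 0.86 (Per3 and Cry2). These points share their libraries, and so their depth and cell content, and are given as a description. Pairs picked after their values were seen stood higher, with r of 0.99 for Per3 and Hlf and 0.86 for Per3 and Cry2. Per3 and Hlf were both lowest in replicate 3 within WT and in replicate 1 within Rank-knockout. Against the day-peaking genes Arntl had r of -0.36 (Dbp), -0.26 (Per3), -0.11 (Nr1d2) and -0.085 (Nr1d1). Clock went mostly the other way, with r of 0.75 (Per3), 0.28 (Dbp), 0.18 (Nr1d2) and -0.26 (Nr1d1). Among 6036 genes with a mean of at least 20 CPM, those whose deviations were most like Nr1d2 were Napg (r = 0.97), Sytl3, Tapbp and Mad2l1bp (r = 0.93), and those most like Arntl were Stat3 (r = 0.97), Ccnt2, 4932438A13Rik, Acox3 and Plxnb2 (r = 0.94).

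**Figure D4:**
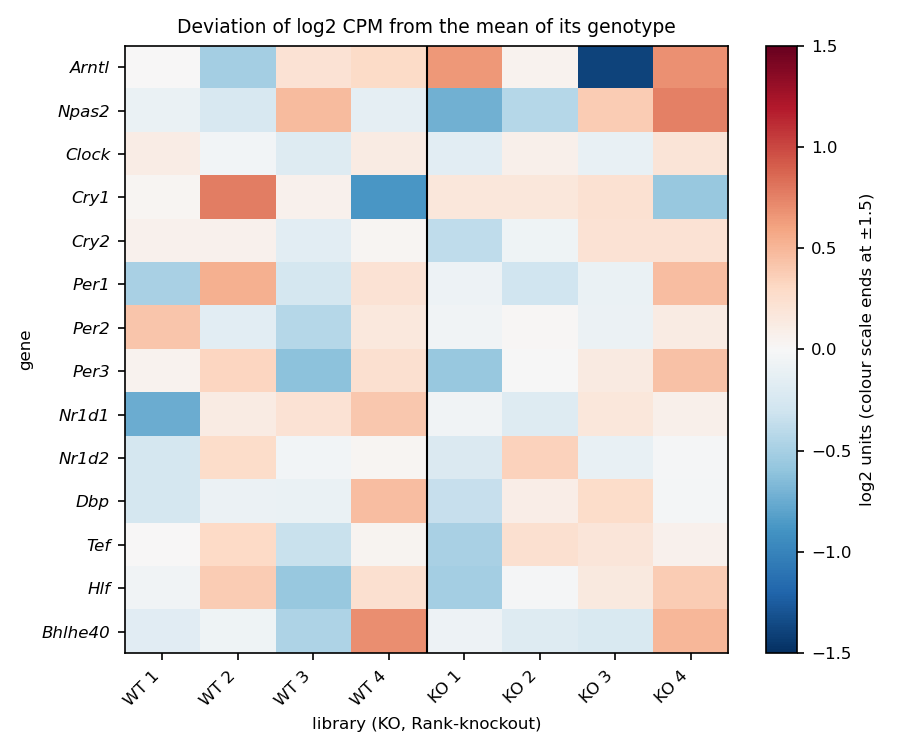
Deviation of log2 CPM from the mean of the same genotype (colour, log2 units, ends at ±1.5) for the 10 clock genes and 4 other clock genes (rows) in each library (columns, KO for Rank-knockout). Rank-knockout replicate 3 is lowest for Arntl, at -1.39, and Per3, Hlf and Tef run alike from library to library.

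Around the core loop, 26 further clock genes were listed, namely 11 other components, 8 that mark or degrade clock proteins and 7 cofactors. Of the 19 that could be tested 3 fell and 1 rose, with a median log2 fold change of -0.32. The share that fell is near that over all tested genes (14.6% lower, 15.8% higher). Beside Hlf, these were Gsk3b, a kinase of several clock proteins, which fell from 281 to 191 mean CPM without overlap (log2 fold change -0.56, SE 0.13, edgeR adjusted p = 0.00458), and Ncor1, the corepressor of the REV-ERB receptors, at -0.38 (edgeR adjusted p = 0.0349). The call of Ncor1 was lost under 10 of 17 other settings. Timeless rose from 5.93 to 14.9 mean CPM, with a log2 fold change of 1.31 (SE 0.27) at an edgeR adjusted p of 0.00243. Its product is best known in mammals for holding replication forks together.

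Of 8 genes known as outputs of the clock 7 were tested and 4 fell, with a median of -0.53, where 14.6% of all tested genes fell. Por, the electron donor of cytochrome P450 enzymes, fell from 364 to 203 mean CPM, with no overlap (log2 fold change -0.85, SE 0.17, edgeR adjusted p = 0.00175). Cdkn1a, an inhibitor of the cell cycle that REV-ERB represses, fell from 247 to 137 mean CPM, also with no overlap (-0.84, edgeR adjusted p = 0.000725). Noct, a rhythmic phosphatase of dinucleotide cofactors, and Alas1, which starts heme synthesis, had -0.55 (edgeR adjusted p = 0.0391) and -0.53 (edgeR adjusted p = 0.0433). Wee1, the mitotic kinase driven through E-boxes, stood at -0.07 with 23.0 mean CPM in the WT libraries and 21.9 in Rank-knockout. All 8 genes of a list of nutrient absorption genes known to be rhythmic fell, with a median of -1.13, among them Apob (-1.34), Cd36 (-1.86) and Apoa4 (-1.16). The list of villus enterocyte markers, which also holds Apoa4, had a median of -1.17, so a fall of this size was not particular to rhythmic genes.

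Genes that answer to signals known to reset clocks gave small counts, to be read against the 30.4% of all tested genes that changed in either direction. Of the 6 tested genes that answer to glucocorticoids 3 fell, namely Sgk1 (-1.44), Tsc22d3 (-0.79) and Errfi1 (-0.96), while Fkbp5 had -0.07 and Klf9 -0.16. Of 5 tested immediate early genes Fos (-1.53) and Jun (-0.95) fell and Ier2 (0.59) rose. Of 4 tested heat shock genes Hsph1 (1.12) and Hsp90aa1 (1.08) rose.

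**Figure D5:**
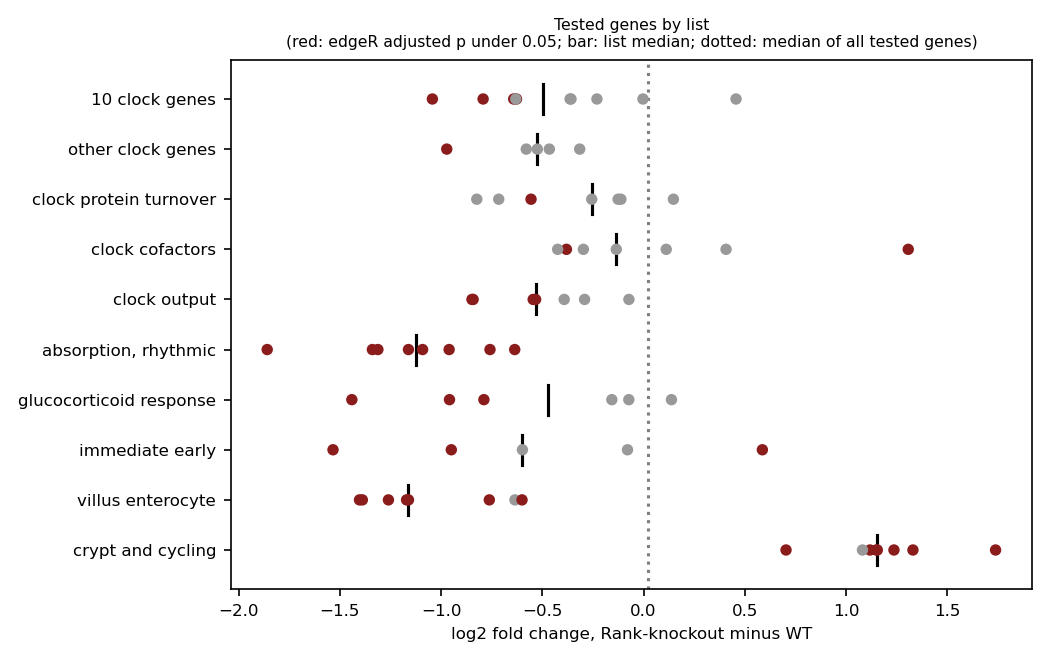
Log2 fold change, Rank-knockout minus WT (horizontal axis), of each tested gene in 10 lists, in red where it passed the edgeR threshold, with the list median as a bar and the median of all tested genes as a dotted line. The clock genes, with a median of -0.50, lie between the villus list at -1.17 and the crypt list at 1.15.

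The cell markers of the samples moved with genotype as well, beside 14.6% of all tested genes called lower and 15.8% called higher. Of 8 villus enterocyte markers 7 fell, with a median of -1.17, and their summed level was 19491 to 25648 CPM in the WT libraries and 8885 to 12212 CPM in Rank-knockout. Of 8 crypt and cycling markers 7 rose, with a median of 1.15 and a summed level of 510 to 775 CPM in the WT libraries and 987 to 1812 CPM in Rank-knockout. Of 4 Paneth markers 3 rose and of 4 goblet markers 3 fell. In bulk samples fewer cells of a type and less RNA per cell cannot be told apart, and the part of cell content in the values of the clock genes was not tested. The 5 T cell markers, of which 4 were tested, at 165 to 257 summed CPM in the WT libraries and 109 to 181 in Rank-knockout, included none that passed the threshold (edgeR). The 4 plasma and B cell markers summed to 28.0 to 91.1 CPM in WT and 6.29 to 39.8 CPM in Rank-knockout. Most of this was Igha, an antibody chain of plasma cells (log2 fold change -1.49, edgeR adjusted p = 0.0664), Jchain did not overlap but was too low to test, and Cd79a was at 0 counts in all libraries. The 4 myeloid markers, none of which could be tested, summed to 2.05 to 10.3 CPM in WT and 2.64 to 9.98 CPM in Rank-knockout, with Adgre1 at 0 counts. Stromal and muscle markers summed to at most 18.01 CPM in a library, and neuron and glia markers to at most 4.88 CPM.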

How the data were processed

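Libraries were made with the QuantSeq 3′ kit, sequenced as single reads, and counted by the authors. Per the study's methods the reads were trimmed with BBDuk, cleared of ribosomal, mitochondrial and phiX sequence with bowtie2, aligned to GRCm38 with STAR and assigned by strand to Ensembl genes with featureCounts. What the authors deposited for the 8 libraries is the unnormalized count of reads of each gene. Since no use of molecular identifiers is described, copies made by PCR are counted too, and p-values measure the spread between these animals only. No row lacked a gene. Symbols and positions came from GENCODE M21 (GRCm38), in which 54495 of the 54532 identifiers were found.

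Counts were tested with the quasi-likelihood F-test of edgeR 4.0.16 in R 4.3.3 (filterByExpr, TMM, robust fit, genotype as the only term), with Benjamini-Hochberg adjustment over all 9855 tested genes and a threshold of 0.05. Fold changes are Rank-knockout minus WT. Libraries of a genotype differed by more than sampling noise, with a chi-square of 3.97 to 22.2 per degree of freedom between pairs. Log2 CPM for the index and the deviations used a prior count of 2. The scripts were tested on simulated data. Alternatives were other scalings and filters, DESeq2 1.42.0, limma-voom (limma 3.58.1), a replicate block, thinning to 1530781 counts and leaving out each library, and the differences from Clock alone were added after the data were seen.

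The 10 genes and all lists were chosen with earlier results of these data known. Named genes were the 10, the list of other clock genes, up to 3 genes with the smallest p of each other list, and the 5 genes most like Nr1d2 and Arntl. Alas1, Wee1, Fkbp5 and Klf9 were named after their values were seen, as were the genes whose direction changed with the processing. A few genes that the rule names, and the values that need them, are not reported here, though list counts include them. Promoters and motif counts came from RefSeq.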

Additional observations from a re-analysis of the deposited data

Results flagged for a closer look

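In 56 sets of 4 libraries (27 of the 29 tested clock genes in each genotype, with the index), 5 held a library that stood apart from the other 3 by Dixon's criterion, where chance gives about 2.8. One was among the 10 clock genes, namely Cry1 with 11.9 CPM in Rank-knockout replicate 4 and 20.3 to 21.1 CPM in the other Rank-knockout libraries. Npas2 had 7.51 CPM in WT replicate 3 and 4.31 to 4.80 CPM in the rest of WT. Ncor1 had 400.4 CPM and Hdac3 41.7 CPM in Rank-knockout replicate 2, where the others had 353 to 360.1 CPM and 34.0 to 34.6 CPM. Ep300 had 63.3 CPM in Rank-knockout replicate 4 and 50.7 to 52.6 CPM in the others. The cause of these values was not tested.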

How the results depend on the processing

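Of 489 comparisons (29 clock genes, 17 other settings) 434 kept direction and side of the threshold. Dbp, Cry2 and Hlf passed it in all. With library totals in place of TMM, 2 of the 10 clock genes of the report fell (Dbp and Cry2), 2566 genes rose and 859 fell, against 1555 and 1438 with TMM. That scaling moved the median of all genes by 0.20 on the log2 scale, and library sizes that omit the 50 top genes moved it by 0.13. Relative to all genes the median of the 10 was -0.52 under TMM and both of these scalings. Leaving out each library gave 3 to 4 of the 10 lower, 3 to 7 further clock genes past the threshold (7 without WT replicate 2, main value 4) 1020 to 1723 genes higher (1020 without WT replicate 4) and 1097 to 1564 genes lower. The index difference then ran from -0.98 to -0.51.

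Clock, fitted at -0.003, turned to 0.19 (library totals), 0.12 (without the 50 most abundant genes), 0.034 (no filter), 0.0024 (mean CPM of at least 5), 0.042 (thinned), and values above 0 when 1 of 4 libraries was left out (WT replicates 1 and 4, Rank-knockout replicates 1 and 3). Over all libraries left out in turn Clock ran from -0.077 to 0.057. Cry1 turned to 0.086 (thinned) and 0.15 (without WT replicate 2), with a range of -0.48 to 0.15 over the libraries left out. With library totals Csnk1d turned to 0.087, Csnk1a1 to 0.072 and Crebbp to 0.062, and without the 50 most abundant genes Csnk1d to 0.017 and Csnk1a1 to 0.0028. Csnk1e ran from -0.0086 (without Rank-knockout replicate 3) to 0.34 over the libraries left out. The cause was not tested.

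Whether replicate numbers pair the animals is not in the labels. Deviations of same-numbered libraries had r of 0.052, 0.15, -0.14 and 0.32, and not every library correlated best with its own number. Correlations this small over so few libraries cannot decide it. A replicate block gave 5 of the 10 clock genes lower, with Nr1d2 added, and of the other clock genes Tef passed too. Arntl had the fewest counts of the 10, at 6 to 63 a library.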
